A study of Mus musculus with 6 samples.

Results

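Tubulin messages were followed through erythroid differentiation of mouse erythroleukemia (MEL) cells for 10 genes, which are 4 alpha-tubulins (Tuba1a, Tuba1b, Tuba1c and Tuba4a), 5 beta-tubulins (Tubb2a, Tubb2b, Tubb4b, Tubb5 and Tubb6) and the gamma-tubulin Tubg1. They were chosen by name out of 23896 genes in the count data, and each is represented by the RefSeq transcript with the highest mean count. Every one of the 10 has a single transcript in these data.

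Alpha- and beta-tubulin form the heterodimer that assembles into microtubules, the tracks of intracellular transport and the fibres of the mitotic spindle. Mammals carry several genes (isotypes) for each, whose proteins are nearly identical except in the acidic C-terminal tail that faces the cytoplasm and carries most of the modifications read by motors and microtubule-associated proteins. Gamma-tubulin sits in ring complexes that nucleate new microtubules. Erythroid precursors stop dividing as they mature, and the mature red cell of mammals has lost its microtubules.

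MEL cells are a transformed mouse line held at an early erythroid stage, and DMSO, here at 2% of the medium, sets off their terminal differentiation. Messenger RNA was sequenced from 2 biological replicates each of day 0 (log-phase cells before induction), day 2 and day 4 of DMSO, giving 6 libraries of the same line in suspension culture. The libraries held 35294930 to 53899476 counts on transcripts. Levels are given as CPM, counts scaled to a library of a common size (1000000) that is adjusted by edgeR's TMM factors (0.921 to 1.07), and a gene is called where edgeR's quasi-likelihood test, fitted to 18351 transcripts of the 6 libraries at once, gave an adjusted p (Benjamini-Hochberg) under 0.05.

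The erythroid identity in the labels was checked first. The summed level of 11 erythroid markers was 1175 and 1223 CPM on day 0, 4496 and 5331 CPM on day 2 and 17972 and 20161 CPM on day 4, and 10 of the 11 were called higher on day 4 than on day 0, while Klf1 was called lower. The 8 megakaryocyte markers summed to 218 to 277 CPM on days 0 and 2 and to 550 and 625 CPM on day 4, of which Itga2b gave 531 and 606 CPM, and Gp6 did not exceed 3 counts in any library. Of the 6 that were tested, 3 were called higher on day 4 than on day 0, namely Itga2b, Gp1ba (log2 fold change 2.51) and Gp9 (0.66). Called lower were 3, namely Gp1bb, Ppbp and Pf4, the last going from 57.4 and 42.7 CPM to 10.2 and 8.93 CPM. Among all transcripts tested 36.2% were called higher and 36.1% lower in that comparison. Myeloid markers summed to 2.54 to 6.91 CPM in every library. Their part in the tubulin values was not tested.

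The beginning of the tubulin coding sequence is shown because the first residues of the nascent chain are what the cofactor TTC5 reads when a cell with surplus tubulin degrades tubulin messages on the ribosome. The first 15 coding bases follow for 2 alpha and 4 beta genes, 5′ to 3′ from GENCODE transcripts of GRCm38, with the codons after the start codon, up to the fourth, in capitals.
Tuba1b: atgCGTGAGTGCatc
Tuba4a: atgCGCGAGTGCatt
Tubb2a: atgCGCGAGATCgtg
Tubb2b: atgCGAGAGATCgtg
Tubb4b: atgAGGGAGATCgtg
Tubb5: atgAGGGAAATCgtg
Across the 5 alpha genes that were tested these codons were written in 3 ways and across the 6 tested beta genes in 5 ways, and within each class every version translated to 1 and the same peptide. Tuba1a and Tuba1c share the letters shown for Tuba1b.

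The other end of the message sets the isotypes apart. The last 45 coding bases before the stop codon are shown for the leading gene of each class and for the gene whose share of the class grew most, with the final codon of the alpha genes in capitals.
Tuba1b: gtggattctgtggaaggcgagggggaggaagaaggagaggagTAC
Tuba4a: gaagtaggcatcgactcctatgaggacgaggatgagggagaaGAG
Tubb5: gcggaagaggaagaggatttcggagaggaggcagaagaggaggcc
Tubb4b: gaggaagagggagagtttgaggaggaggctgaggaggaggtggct
The alpha tails end in different codons. That of Tuba1b is the genetically encoded C-terminal tyrosine that a carboxypeptidase can remove and tubulin tyrosine ligase restores, and Tuba4a lacks it and ends in a glutamate codon. Tuba1b and Tuba4a shared 95.8% of all residues but 46.7% of the last 15, and Tubb4b and Tubb5 shared 97.5% of all residues and 46.7% of the last 15. Tuba1a and Tuba1b were alike in 99.6% of residues and identical in the last 15, and the same held for Tubb2a and Tubb2b.

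Such similarity bears on the counts. Of the 50-base words of Tuba1b, 64.6% also occurred in another tubulin gene, against 59.8% for Tuba1c, 52.0% for Tuba1a, 45.6% for Tubb2a and 33.4% for Tubb2b. Tubb4b shared 0.0% with other tubulins but 50.9% with any other annotated gene, chiefly its pseudogene Tubb4b-ps1 at 43.6%. With any other annotated gene, tubulin or not, the share was 73.8% for Tuba1b, 72.9% for Tuba1a and 61.0% for Tuba1c. It was 49.6% for Tubb2a and 39.3% for Tubb2b. Gm14150 held 48.1% of the Tuba1b words and Gm17383 held 46.6% of the Tuba1a words. Tuba4a shared 1.1% and Tubb5 0.1% with any gene, and Tubg1 shared 13.9% with Tubg2. How reads with several equally good places were counted is not given in the sources used here. The split between Tuba1a, Tuba1b and Tuba1c and between Tubb2a and Tubb2b is therefore uncertain. The level of Tubb4b may lack or include reads of its pseudogenes. In the same way the levels of the other 5 genes may lack or include reads of genes outside the tubulins. Shares set against Tuba4a or Tubb5, which are nearly free of such words, carry that limit.

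Transcript levels of the tested members went down after DMSO. Of the 9 members that passed the low-count filter, 9 were called lower on day 2 than on day 0, where 31.6% of all transcripts tested were called lower and 31.9% higher. From day 2 to day 4, 5 of the 9 were called lower, against 16.4% of all transcripts lower and 14.6% higher. Over the whole course 9 were called lower, against 36.1% lower and 36.2% higher among all transcripts. The median log2 fold change of the 9 was -0.66 in the first step (day 0 to day 2), -0.40 in the second (day 2 to day 4) and -1.30 over the whole course, and that of 12381 tested genes was 0.01, -0.00 and -0.02. With scaling by total counts alone, the split over all transcripts went from 5792 lower and 5847 higher to 4187 and 7593 in the first step and from 3002 and 2682 to 3787 and 1880 in the second, and the members called lower were 8, 5 and 8 in the 3 comparisons. In bulk RNA, fewer cells of a type and less RNA per cell cannot be told apart. The second-step count was 2 without day 2 replicate 2 and also 2 without day 4 replicate 2, and the first-step count was 6 without day 2 replicate 1.

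**Figure D1:**
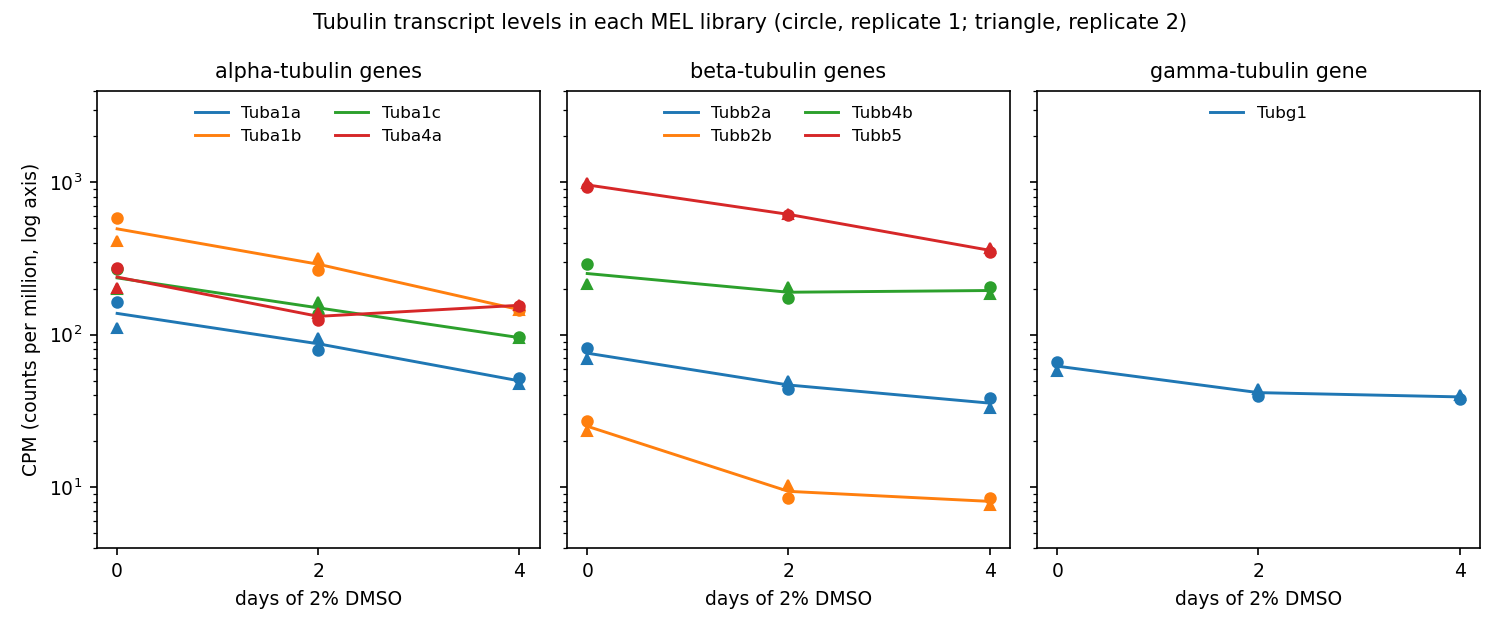
Levels of the 9 tested members in CPM on a log axis against days of DMSO, with circles for replicate 1, triangles for replicate 2 and lines through the daily means. Tuba1b and Tubb5 descend over both steps, while Tuba4a and Tubb4b stand at means of 132 and 190 CPM on day 2 and 156 and 195 CPM on day 4.

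The 3 genes Tuba1a, Tuba1b and Tuba1c lie in one cluster on chromosome 15 and fell over both steps. Tuba1b (NM_011654, chr15:98931429-98934390, GRCm38), the most abundant alpha gene, stood at 579 and 412 CPM on day 0, 264 and 317 CPM on day 2 and 146 and 146 CPM on day 4. No day overlapped another. The log2 fold change was -0.77 (SE 0.16, edgeR adjusted p = 0.00161) from day 0 to day 2 and -1.0 (SE 0.16, edgeR adjusted p = 0.00149) from day 2 to day 4, and -1.77 (SE 0.16, edgeR adjusted p = 3.03e-06) over the course, which left 0.294 of the day 0 level.

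Tuba1a (NM_011653, chr15:98949847-98953501), the isotype best known from developing neurons, was at 165 and 111 CPM on day 0, 79.5 and 94.8 CPM on day 2 and 52.1 and 47.6 CPM on day 4. Tuba1c (NM_009448, chr15:99029891-99038105) was at 271 and 200 CPM, then 136 and 164 CPM, then 96.6 and 94.8 CPM. In both genes each day lay wholly below the one before it. Over the course the log2 fold change was -1.47 (SE 0.17, edgeR adjusted p = 1.48e-05) for Tuba1a and -1.30 (SE 0.15, edgeR adjusted p = 1.6e-05) for Tuba1c. The first-step calls of these 2 genes were lost without day 2 replicate 1, at edgeR adjusted p = 0.0715 and 0.0553, and the second-step calls without day 2 replicate 2, at 0.0659 and 0.106, or without day 4 replicate 2, at 0.0518 and 0.066. Because the 3 genes share so much sequence their counts were also added together. That gave 1014 and 724 CPM on day 0, 480 and 575 CPM on day 2 and 295 and 288 CPM on day 4. The log2 ratio of daily means was -1.58 from day 0 to day 4. The sum does not account for reads shared with genes outside the cluster.

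Tuba4a behaved differently in the second step. This isotype (NM_009447, chr1:75214972-75221261), whose message carries no final tyrosine codon, was at 273 and 204 CPM on day 0, 125 and 139 CPM on day 2 and 155 and 156 CPM on day 4. It fell to day 2 with a log2 fold change of -0.85 (SE 0.14, edgeR adjusted p = 0.000347), and both day 4 libraries then lay above both day 2 libraries by 0.24 on the log2 scale (SE 0.14, edgeR adjusted p = 0.219), which did not pass the test. Over 11 alternative settings that second-step p ranged from 0.0391, in a fit of only those 2 days, to 0.634. On day 4 Tuba4a was still below day 0, at -0.62 (SE 0.14, edgeR adjusted p = 0.00219).

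The alpha genes and some others also differed between the day 0 replicates. Replicate 1 stood above replicate 2 on day 0 by 1.49 times for Tuba1a, 1.41 times for Tuba1b, 1.35 times for Tuba1c, 1.34 times for Tuba4a and 1.36 times for Tubb4b, whereas the ratio was 0.946 for Tubb5. On day 4 the same ratios lay between 0.946 for Tubb5 and 1.10 for Tubb4b. The SEs of the alpha genes and of Tubb4b carry that spread.

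Tubb5 carried the bulk of beta-tubulin message. Its gene (NM_011655, chr17:35833920-35838301) encodes the beta isotype of most dividing cells, and its level was 934 and 987 CPM on day 0, 610 and 622 CPM on day 2 and 348 and 368 CPM on day 4. Replicates were close on every day and no day overlapped another. The log2 fold change was -0.64 (SE 0.12, edgeR adjusted p = 0.000678) in the first step and -0.78 (SE 0.12, edgeR adjusted p = 0.00101) in the second, and -1.42 (SE 0.12, edgeR adjusted p = 1.34e-06) over the course. All 3 calls held under each of the 11 alternatives run for the step concerned.

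Tubb4b (NM_146116, chr2:25222158-25224702), the other abundant beta isotype and one that cilia and many cell types use, changed least among the tested members. It was at 291 and 214 CPM on day 0, 174 and 207 CPM on day 2 and 205 and 186 CPM on day 4. Day 4 lay within the range of day 2, and day 0 replicate 2, at 214 CPM, was only just above the highest later library, at 207 CPM. The log2 fold change was -0.41 (SE 0.15, edgeR adjusted p = 0.0373) in the first step, 0.04 (SE 0.15, edgeR adjusted p = 0.874) in the second and -0.37 (SE 0.15, edgeR adjusted p = 0.0484) over the course. These calls were weak. Over the 11 alternatives for the whole course the adjusted p ran from 0.000428 to 0.315, with 5 past the threshold, and without day 0 replicate 1 the log2 fold change was -0.14. In the first step it ran from 0.000373 to 0.272, again with 5 past the threshold. With scaling by total counts alone, which put the median of all transcripts at 0.22 and 0.11 in these comparisons, the Tubb4b values were -0.21 and -0.26 and neither passed.

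Tubb2a and Tubb2b, neighbours on chromosome 13 and known mainly from neural tissue, were minor isotypes. Tubb2a (NM_009450, chr13:34074278-34078008) was at 82.0 and 69.4 CPM on day 0, 44.1 and 49.5 CPM on day 2 and 38.3 and 32.9 CPM on day 4, a log2 fold change of -1.09 over the course (SE 0.13, edgeR adjusted p = 1.65e-05). Its second-step change of -0.40 (SE 0.13, edgeR adjusted p = 0.0359) passed in 7 of 11 alternatives and was lost when any library of either day was left out. Tubb2b (NM_023716, chr13:34127008-34130354) was at 27.0 and 23.3 CPM, then 8.43 and 10.3 CPM, then 8.45 and 7.69 CPM.

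The fall of Tubb2b came in the first step, at -1.42 (SE 0.15, edgeR adjusted p = 1.3e-05), the largest first-step fall among the members. Its second step was -0.22 (SE 0.15, edgeR adjusted p = 0.288). Added together, the pair stood at 109 and 92.7 CPM on day 0, 52.6 and 59.9 CPM on day 2 and 46.8 and 40.6 CPM on day 4.

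Tubb6 was nearly absent. A single count was found in the 6 libraries, in day 0 replicate 2. In the others a count of 0 allows up to 0.0610 to 0.0832 CPM, counting error only. It did not enter the test, so it is not among the 9.

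Tubg1 (NM_134024, chr11:101119904-101126423), which encodes the nucleating gamma-tubulin of most cells, was at 66.5 and 58.0 CPM on day 0, 39.6 and 43.8 CPM on day 2 and 37.8 and 40.4 CPM on day 4. It fell in the first step by 0.58 on the log2 scale (SE 0.12, edgeR adjusted p = 0.00123) and its second step was -0.09 (SE 0.12, edgeR adjusted p = 0.572). Its neighbour Tubg2 was at 5.59 and 5.08 CPM, then 3.16 and 3.28 CPM, then 3.02 and 2.94 CPM, with a log2 fold change of -0.84 over the course (SE 0.17, edgeR adjusted p = 0.000977) beside -0.67 for Tubg1 (SE 0.12, edgeR adjusted p = 0.000313).

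**Figure D2:**
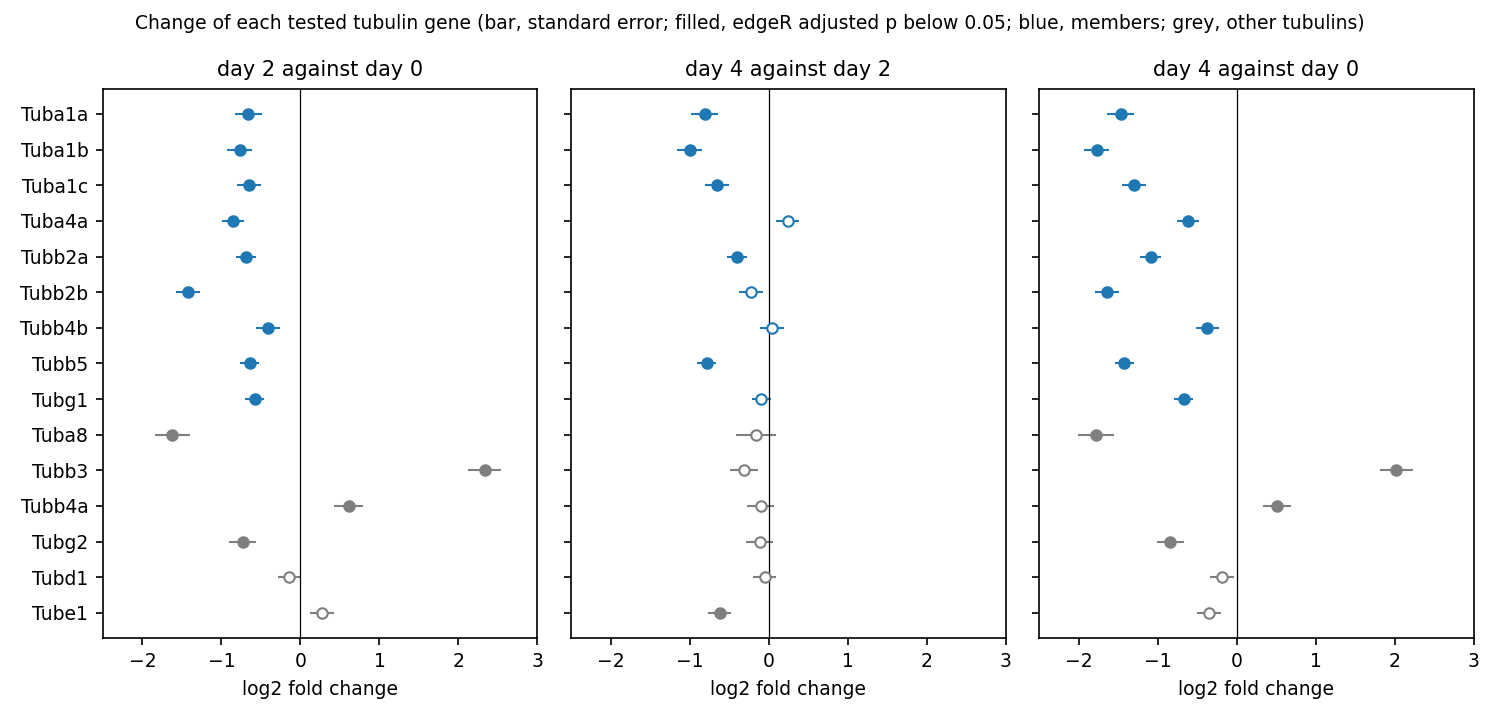
Log2 fold change of the 15 tested tubulin genes in each comparison, with bars for 1 standard error and filled points for an edgeR adjusted p below 0.05. The 9 members, in blue, sit left of zero in the first and last panels, and Tubb3 sits farthest right at 2.33 and 2.02.

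Tubulin genes outside the named set were scarce in these cells, and 6 of 10 entered the test. Over the course 2 of the 6 were called lower and 2 higher, beside 36.1% and 36.2% of all transcripts. Tubb3, the class III beta-tubulin used as a neuronal marker, was at 0.956 and 0.907 CPM on day 0, 4.26 and 5.07 CPM on day 2 and 3.74 and 3.80 CPM on day 4. Tubb4a, another isotype best known from brain, was at 3.09 and 3.28 CPM, then 4.50 and 5.21 CPM, then 4.21 and 4.86 CPM. Both went against the members, with day 0 below every later library.

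Tubb3 rose by 2.33 in the first step (SE 0.21, edgeR adjusted p = 4.36e-06) and stood 2.02 above day 0 on day 4 (SE 0.21, edgeR adjusted p = 6.46e-06), a 4.05-fold level. For Tubb4a the values were 0.61 (SE 0.18, edgeR adjusted p = 0.0107) and 0.51 (SE 0.18, edgeR adjusted p = 0.0223). The first was lost without day 2 replicate 2, at 0.50 and adjusted p = 0.107, and the second was lost with DESeq2, at adjusted p = 0.0664, without day 0 replicate 1, at 0.0554, and without day 4 replicate 2, at 0.134. Tuba8 was at 3.51 and 4.21 CPM on day 0, 1.39 and 1.14 CPM on day 2 and 0.998 and 1.24 CPM on day 4, and fell by 1.78 over the course (SE 0.23, edgeR adjusted p = 3.45e-05).

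The centriolar tubulins are needed for centriole structure and showed no call over the course. Tubd1 (delta) was at 9.35 to 12.6 CPM throughout, with a log2 fold change of -0.19 (SE 0.15, edgeR adjusted p = 0.263), and Tube1 (epsilon) was at 5.69 and 6.27 CPM on day 0 and 4.71 and 4.71 CPM on day 4, at -0.35 (SE 0.15, edgeR adjusted p = 0.0604). Tube1 was called lower from day 2 to day 4, at -0.62 (SE 0.15, edgeR adjusted p = 0.011), a call lost without any 1 of the day 2 replicates or day 4 replicate 2. Tuba3a, Tuba3b and Tubal3 had 1, 3 and 2 counts in all 6 libraries together. Tubb1, the beta-tubulin of platelets, had 19 counts, of which 14 came on day 0.

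The composition of each class was then followed, dividing CPM by transcript length so that genes can be compared. Summed over the alpha genes this level was 658 and 473 CPM per kilobase on day 0, 309 and 366 on day 2 and 216 and 213 on day 4. Over the beta genes it was 600 and 562, then 374 and 405, then 291 and 283. In both classes each day lay below the one before it, and the alpha-to-beta ratio of these sums was 1.10 and 0.841 on day 0, 0.825 and 0.905 on day 2 and 0.744 and 0.753 on day 4.

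**Figure D3:**
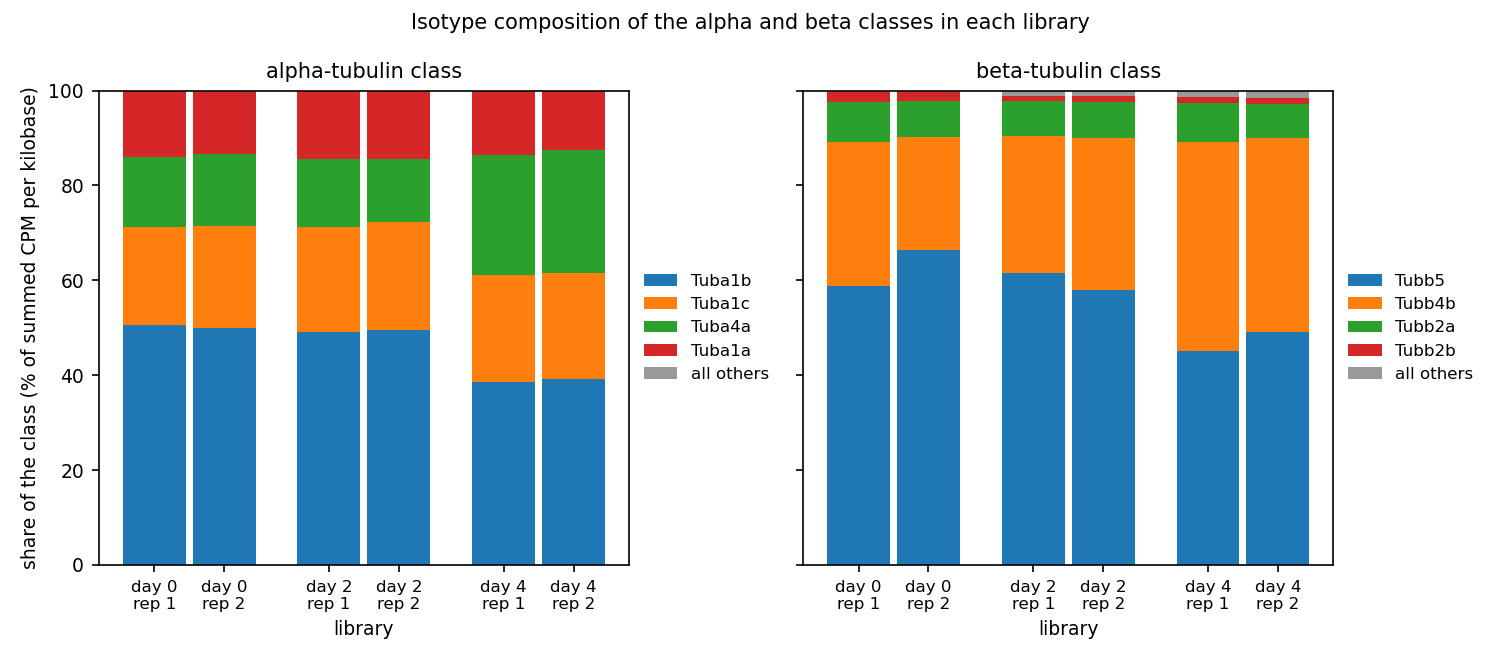
Stacked shares of each isotype in the summed CPM per kilobase of its class, 1 bar for each of the 6 libraries, with grey for all remaining genes. On day 4 the Tuba4a segment reaches 25.3% and 25.8% and the Tubb4b segment 44.0% and 41.0%.

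Among alpha-tubulins the order of levels changed. On day 0 Tuba1b made up 50.2% ± 0.341 of the class (SD, n = 2), Tuba1c 21.1% ± 0.427, Tuba4a 14.9% ± 0.366 and Tuba1a 13.5% ± 0.569. Day 2 kept that first place, with Tuba1b at 49.3% ± 0.438, Tuba1c at 22.4% ± 0.231, Tuba1a at 14.3% ± 0.0507 and Tuba4a at 13.8% ± 0.679, the last 2 within their spread of each other. On day 4 Tuba1b was at 38.9% ± 0.375 and Tuba4a, at 25.5% ± 0.357, had passed Tuba1c at 22.5% ± 0.0678.

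The ratio of Tuba1b to Tuba4a per kilobase was 3.45 and 3.30 on day 0, 3.43 and 3.72 on day 2 and 1.53 and 1.52 on day 4. Days 0 and 2 overlapped in this ratio, and both day 4 libraries lay below them. Within the cluster the ratio of Tuba1b to Tuba1c went from 2.43 and 2.34 to 1.71 and 1.75. The Tuba4a share depends on the length taken for its transcript, and with 2083 bases in place of 2840 it was 19.3% on day 0 and 31.8% on day 4, the same direction. The order of the genes depends on the lengths, since in shares of counts with no division by length Tuba4a held 34.8% and Tuba1b 32.5% on day 4.

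A gene was tested against its class by setting each library size to the summed counts of the class. That sum includes the gene itself, so the value of a gene with a large share is muted. Tubb5, for example, held 72.9% of the beta counts on day 0. Changes of genes within 1 class are also not independent of each other. Of 5 alpha genes tested in this scaling, Tuba4a was called over the course, at 0.69 above the class (SE 0.26, edgeR adjusted p = 0.0109), and in the second step, at 0.80 (SE 0.26, edgeR adjusted p = 0.0102). In the first step Tuba8 was called at -0.90 (SE 0.36, edgeR adjusted p = 0.0203), a call lost without day 0 replicate 2, at -0.50 and adjusted p = 0.155, without day 2 replicate 1, at 0.0501, and without day 2 replicate 2, at 0.258. Since the scaling follows the class downward, many transcripts of other genes were called with it, namely 63.3% in the first step, 41.9% in the second and 79.9% over the course. With so many called, the adjustment for multiple testing changed p little. Over the course Tuba4a had an edgeR p of 0.00804 before it and 0.0109 after it. Tubb5 against the beta class had an edgeR p of 0.029 before it and 0.0348 after it.

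Tuba1b stood 0.45 below its class on day 4 relative to day 0 (SE 0.26, edgeR adjusted p = 0.0991), which was not called. With 1 library left out at a time this value stayed between -0.46 and -0.44, while the call depended on the library left out. The Tuba4a call for the whole course was lost without day 4 replicate 1, at edgeR adjusted p = 0.109, or replicate 2, at 0.124, and that of the second step without any 1 of the 4 libraries concerned, with p from 0.0805 to 0.21. With 1 library left out at a time the Tuba4a value for the course stayed between 0.67 and 0.71. Over all 6 alternatives, which include Tuba1b as the reference in place of the class sum, it ran from 0.67 to 1.14. Leaving out 1 library leaves that day with a single one, assumed to vary like the others.

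The beta class shifted from Tubb5 towards Tubb4b. Tubb5 made up 58.8% and 66.3% of beta-tubulin on day 0, 61.5% and 58.0% on day 2 and 45.1% and 49.0% on day 4. Tubb4b made up 30.3% and 23.8%, then 29.0% and 32.0%, then 44.0% and 41.0%. The Tubb5-to-Tubb4b ratio per kilobase was 1.03 and 1.20 on day 4, against 1.94 and 2.79 on day 0. How near the pair came on day 4 depends on the lengths, since in shares of counts with no division by length Tubb5 held 59.2% and Tubb4b 32.2%.

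Tubb2a kept a like share, 8.08% ± 0.585 on day 0 and 7.69% ± 0.678 on day 4 (SD, n = 2), and Tubb2b went from 1.98% ± 0.114 to 1.29% ± 0.0620. Tubb3 and Tubb4a stayed below 1% of the class, with day 4 shares of 0.703% ± 0.0210 and 0.710% ± 0.0850 against 0.0858% ± 0.000737 and 0.247% ± 0.0220 on day 0.

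Relative to the beta class, Tubb4b was called higher over the course, at 0.76 (SE 0.14, edgeR adjusted p = 0.000334), in this fit and in all 6 alternatives run for it, and in the second step, at 0.57 (SE 0.14, edgeR adjusted p = 0.00458), except without day 2 replicate 1, at 0.0656. Tubb5 was called lower than its class for the course, at -0.30 (SE 0.12, edgeR adjusted p = 0.0348), and that call was lost without day 0 replicate 2, at 0.0685, day 4 replicate 1, at 0.178, or day 4 replicate 2, at 0.0787. Tubb2b was called lower in the first step, at -0.82 (SE 0.14, edgeR adjusted p = 0.000264). Tubb3 stood 3.14 above the class over the course (SE 0.21, edgeR adjusted p = 3.59e-08) and Tubb4a 1.63 above it (SE 0.18, edgeR adjusted p = 3.18e-06).

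In this scaling 3 of 6 beta genes were called in the first step, 2 in the second and 5 over the course, where 73.3%, 65.9% and 84.7% of all transcripts were called, so that none of these counts is a larger share than the background. With Tubb5 in place of the class sum the second-step count was 5, and without any 1 of the day 2 or day 4 libraries it was 0 or 1. The count of 5 with Tubb5 as the reference covers every tested beta gene other than Tubb5. Tubb5 had the largest second-step fall of the 6, at -0.78, and that count reflects its fall. No share over all transcripts was computed with Tubb5 as the reference.

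The sequence before the start of Tubb4b and Tubb5 is shown because their shares moved in opposite directions, and CCAAT, a common promoter element, was searched in it on both strands. RefSeq promoter entries of GRCm38.p6 were found for 7 of the 9 tested members, and none for Tubb2b and Tubg1. The 250 bases upstream of Tubb4b (chr2:25224703-25224952, minus strand) and Tubb5 (chr17:35838302-35838551, minus strand) are written 5′ to 3′ with each CCAAT, or its reverse complement ATTGG, in capitals.
Tubb4b: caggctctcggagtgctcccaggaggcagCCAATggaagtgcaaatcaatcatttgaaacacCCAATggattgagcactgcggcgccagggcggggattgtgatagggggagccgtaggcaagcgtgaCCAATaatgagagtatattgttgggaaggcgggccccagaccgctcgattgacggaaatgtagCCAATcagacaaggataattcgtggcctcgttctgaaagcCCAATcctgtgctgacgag
Tubb5: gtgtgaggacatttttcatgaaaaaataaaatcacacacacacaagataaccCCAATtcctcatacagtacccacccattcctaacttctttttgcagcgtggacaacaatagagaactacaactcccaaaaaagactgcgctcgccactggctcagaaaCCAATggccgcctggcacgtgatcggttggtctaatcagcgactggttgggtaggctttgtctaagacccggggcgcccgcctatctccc
Tubb4b held 5 such matches, beginning 221, 188, 122, 59 and 19 bases before the start, and Tubb5 held 2, at 198 and 90 bases. Tuba1a and Tuba1c held 1 each, and Tuba1b and Tubb2a none. The entry of Tuba4a also held none, but it lies inside the gene as placed above and not before its start. At least 1 match was present in 33.8% of 32851 promoter entries of the same window. No such share was computed for 2 or for 5 matches, and a link between the matches and the shares of the 2 genes was not tested. The erythroid GATA-type letters AGATAA or TGATAA occurred once before Tubb5, before no other member with an entry, and in 16.6% of all entries. TTTGAA was also searched, and occurred 1 time before Tubb4b, before no other member with an entry, and in 16.0% of all entries. These are matches of letters only, and no binding was measured in these libraries.

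Genes that act on tubulin were counted next, from lists drawn up by function, for day 4 relative to day 0. Over 12381 tested genes 36.4% were called lower and 35.5% higher in that comparison. Newly made tubulin is folded by prefoldin and the chaperonin CCT. Of 9 CCT genes 8 were called lower on day 4 than on day 0, with a list median of -1.42, and of 6 prefoldin genes 4 were called lower and 0 higher, with a median of -1.11. Cct6a was at 820 and 811 CPM on day 0 and 220 and 190 CPM on day 4 (log2 fold change -1.99, SE 0.13, edgeR adjusted p = 2.23e-07), and Cct8 was at 611 and 631 CPM on day 0 and 187 and 174 CPM on day 4 (-1.78, SE 0.12, edgeR adjusted p = 2.72e-07). The remaining member, Cct6b, was below 1 CPM in every library and was not called. Among prefoldin subunits Pfdn6 changed by -1.28 and Pfdn2 by -1.26, while Pfdn5 (0.40) and Vbp1 (-0.21) were not called.

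The list of heterodimer cofactors, with Arl2 and Tbcel counted beside them, went both ways, as tested genes did at large. Of 7, 2 were called lower (Tbcb and Arl2) and 2 higher (Tbcd at 0.33 and Tbcel), with a median of -0.22. Among all tested genes 36.4% were called lower and 35.5% higher. Tbcb, which acts on alpha-tubulin, went from 43.8 and 31.6 CPM to 22.8 and 21.2 CPM (-0.78, SE 0.16, edgeR adjusted p = 0.000883). Tbcel rose from 21.5 and 21.1 CPM to 45.8 and 46.3 CPM (1.11, SE 0.11, edgeR adjusted p = 4.29e-06). Of the autoregulation pair, Scaper, which links TTC5 to mRNA decay, went from 12.3 and 13.1 CPM on day 0 to 41.4 and 39.0 CPM on day 2 and 29.1 and 26.1 CPM on day 4, called higher over the course at 1.12 (SE 0.12, edgeR adjusted p = 8.82e-06). Ttc5 itself was at 13.4 and 21.0 CPM on day 0 and 19.0 and 19.6 CPM on day 4 and was not called (0.16, SE 0.19, edgeR adjusted p = 0.447), although both genes of the pair were called without day 0 replicate 2.

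Among 8 gamma-tubulin ring complex genes, 4 were called lower and 1, Tubgcp6 at 0.58, higher, with a median of -0.18, beside -0.67 for Tubg1 itself. The range over the list was -0.48 to 0.58, and among all tested genes 36.4% were called lower and 35.5% higher. In place of these 5 calls there were 2 without day 4 replicate 2, 3 with scaling by total counts and 3 in a fit of only those 2 days.

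Enzymes that modify tubulin went both ways, as tested genes did at large. Of 25 listed, 17 were tested, 7 were called higher and 4 lower, and the median was 0.28. Among all tested genes 35.5% were called higher and 36.4% lower. The glycylase gene Ttll3 rose from 13.2 and 14.3 CPM to 86.1 and 100 CPM (2.76, SE 0.13, edgeR adjusted p = 3.24e-08), the alpha-tubulin acetyltransferase Atat1 from 5.91 and 4.82 CPM to 17.9 and 21.6 CPM (1.89, SE 0.16, edgeR adjusted p = 1.49e-06), and the deacetylase Hdac6 from 39.3 and 28.7 CPM to 102 and 114 CPM (1.67, SE 0.15, edgeR adjusted p = 2.21e-06). Vash2, a carboxypeptidase gene whose product removes the final tyrosine, was counted here on a non-coding RefSeq transcript (NR_027352) and fell from 8.73 and 8.91 CPM to 2.47 and 2.14 CPM (-1.94, SE 0.16, edgeR adjusted p = 1.52e-06).

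Next came genes that destabilise microtubules. Stmn1, which sequesters tubulin dimers and was the only one of 4 stathmins tested, was at 54.6 and 85.8 CPM on day 0 and 26.0 and 22.5 CPM on day 4 (-1.53, SE 0.18, edgeR adjusted p = 2.02e-05). Of 9 tested severing and depolymerising enzymes 5 were called lower and 3 higher, beside 36.4% and 35.5% of all tested genes, with a median of -0.42. The mitotic depolymerase Kif2c changed by -1.76, Katnal2 by -1.47, Fignl1 by -1.43 and Kif18a by -0.98.

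Of 18 tested microtubule-associated genes 7 were called lower and 3 higher, beside 36.4% and 35.5% of all tested genes, with a median of -0.12. The end-binding gene Mapre3 rose from 1.18 and 0.866 CPM to 18.9 and 20.6 CPM (4.28, SE 0.19, edgeR adjusted p = 2.02e-08), and Map7, which recruits kinesin, from 1.35 and 1.59 CPM to 9.06 and 10.9 CPM (2.76, SE 0.18, edgeR adjusted p = 2.96e-07). Camsap3, which caps minus ends, changed by 1.35 and Map7d1 by -1.33.

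**Figure D4:**
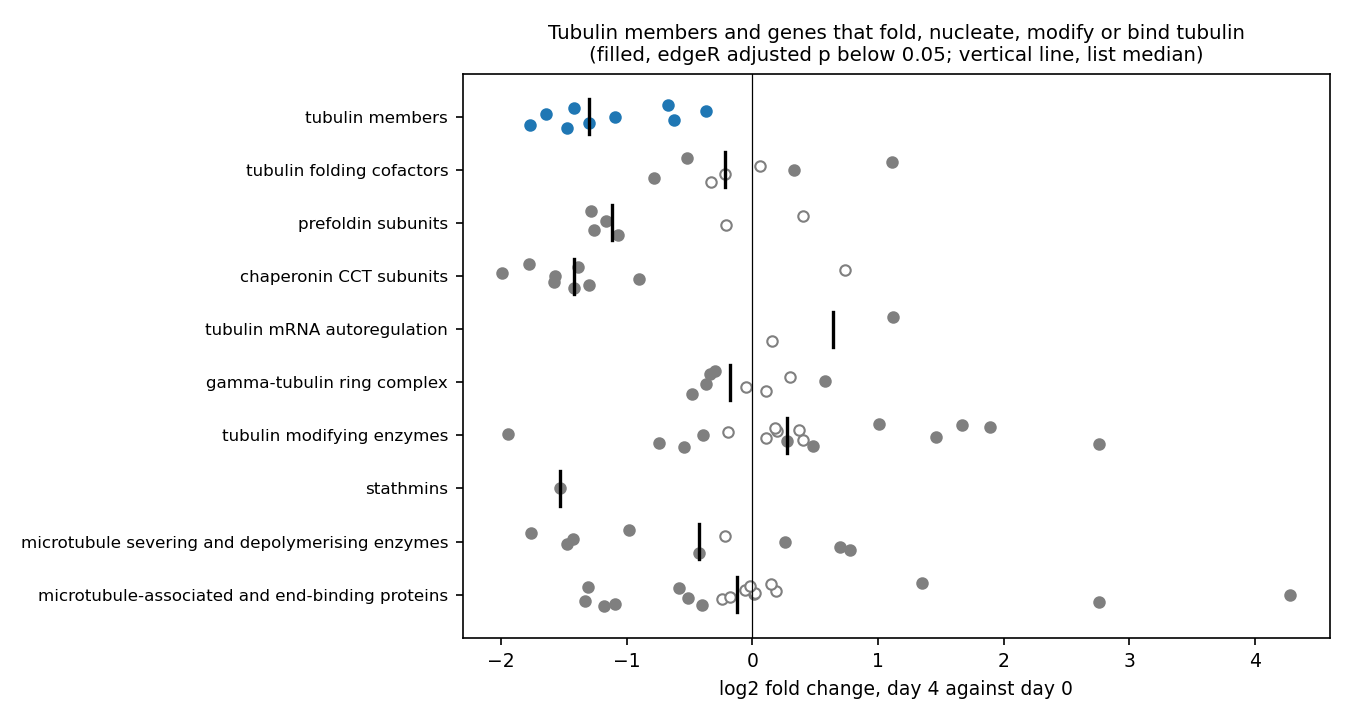
Log2 fold change of day 4 against day 0 for every tested gene of the tubulin set and of 9 lists that act on tubulin, filled where the edgeR adjusted p is below 0.05, with a vertical line at each list median. The CCT and prefoldin medians, -1.42 and -1.11, lie near the tubulin median of -1.30, and the modifying enzymes spread from -1.94 to 2.76.

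The genes nearest in pattern to the leading isotypes were found by the Euclidean distance of log2 CPM, centred on each gene's mean over the 6 libraries, among 12381 genes. Nearest to Tuba1b were Tst (0.20), 4933404O12Rik (0.27) and Pold2 (0.29), and Tuba1a ranked 10, Tuba1c 63, Tubb5 122 and Tuba4a 3295. Nearest to Tubb5 were Traip (0.10), Mcm7 (0.10) and Fen1 (0.12), with Tuba1c at rank 319, Tuba1a at 517, Tubb2a at 630, Tuba1b at 659 and Tubb4b at 4204. Mcm7 is a subunit of the replicative helicase and Fen1 a nuclease of DNA replication. The points share the libraries, and no test was run.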

How the data were processed

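The authors made poly(A)-selected stranded libraries, trimmed adapters with cutadapt and aligned reads to mm10 (GRCm38) with TopHat, keeping multiply placed reads up to a limit. The deposited values are raw read counts per RefSeq transcript, 1 set per library, with no normalization. HTSeq is named in the submitters' processing notes, and its settings and the annotation release are not given in the sources used here. Reads on no feature made up 50.5% to 58.4% of a library and were left out, and ambiguous and non-unique reads are listed at 0.

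Symbols came from a RefSeq table for 32199 transcripts and from GENCODE for 187, and 268 had none. Counts were fitted in edgeR 4.0.16 (R 4.3.3) with TMM factors, filterByExpr by day and glmQLFit and glmQLFTest, all 6 libraries in 1 model with day as the factor and Benjamini-Hochberg adjustment over 18351 transcripts. An SE is the size of a log2 fold change over the root of its F statistic. Shares used GENCODE transcript lengths and are a description with no test. The fits were tested on simulated counts. p-values measure the spread between the labelled biological replicates. In the fits relative to a class, dispersions were estimated over all transcripts in that scaling. SEs and p-values there also carry the spread of the class sum, which for alpha was 1291 and 932 CPM on day 0.

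Alternatives were DESeq2 1.42.0, other scalings, no filter, a fit of only the days compared, a replicate block, library sizes without globin transcripts, each library left out, another class reference, and other lengths or class sums for shares. Named are every member, every other tested tubulin gene, at most 4 called genes of each list by size of change over the course, and the 3 genes nearest to each leading isotype. Ttc5, Cct6b, Pfdn5, Vbp1, Itga2b, Gp1ba, Gp9, Gp6, Gp1bb, Ppbp, Pf4 and Klf1 lie outside that rule and were named after their values were seen, as were the untested tubulins. The members and lists were chosen with earlier results of these data known.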

Additional observations from a re-analysis of the deposited data

How the results depend on the processing

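Of 297 alternative values for the log2 fold changes of single members, 271 kept their direction and their side of the threshold, 22 were no longer past it, 1 newly passed and 3 turned sign, all 3 for Tubb4b from day 2 to day 4, where no change was called. With scaling by total counts that value was -0.04, and Tubd1 from day 0 to day 2 was 0.06. With the most abundant gene as the reference, Tuba1a relative to its class was 0.19 in the second step (day 2 to day 4) and 0.30 over the course (day 0 to day 4), Tuba1c was 0.35 in the second step, and 5 beta genes were called in the second step.

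Leaving out 1 library at a time, members called ranged from 6 to 9, 2 to 4 and 8 to 9 for the first step (day 0 to day 2), the second and the whole course. Alpha genes called relative to their class ranged from 0 to 1, 0 to 0 and 0 to 3, and beta genes from 3 to 4, 0 to 1 and 4 to 5. In the second step the log2 fold change ranged from -0.09 to 0.17 for Tubb4b, -0.21 to 0.01 for Tubb4a and -0.22 to 0.10 for Tubd1. Relative to the class it ranged from -0.01 to 0.03 for Tuba1c over the course, from -0.19 to 0.01 and from -0.07 to 0.14 for Tubb2a in the first step and over the course, and from -0.11 to 0.02 for Tubb5 in the first step. These fits hold 1 library fewer, and the cause was not tested beyond that.

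With no division by length, the shares on days 0, 2 and 4 were 44.5%, 43.9% and 32.5% for Tuba1b, 21.5%, 20% and 34.8% for Tuba4a, 72.9%, 70.7% and 59.2% for Tubb5, and 19.1%, 21.8% and 32.2% for Tubb4b. With the other length of Tuba4a, chosen after seeing the data, they were 47.7%, 46.9% and 35.6% for Tuba1b and 19.3%, 17.9% and 31.8% for Tuba4a.

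The labels number replicates 1 and 2 on each day, and differences between replicates correlated over 18351 transcripts by 0.034, 0.03 and 0.117 for the 3 pairs of days, so the numbers were not taken to pair libraries. A fit with the replicate block called 8, 5 and 8 members in the 3 comparisons, losing Tubb4b at adjusted p = 0.0522 and 0.0609, and 0 alpha genes relative to their class in either step. Of 429 counts for the gene lists, 57 differed by more than 1.5 times. Each member has 1 transcript here, so a second or a summed transcript could give no other value. With 2 libraries per day, a change in one library can decide a call.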
